A study of Mus musculus with 18 samples.

Results

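The genes described here are 8 factors of the general pluripotency network, Pou5f1, Sox2, Sall4, Utf1, Dppa4, Dppa2, Tcf3 and Zfp281, a set of transcription and chromatin factors named for their part in pluripotency in general. They were found by gene symbol among the 45706 genes of the count table, and all 8 were present and passed the filter on low counts that left 16619 genes. RNA was sequenced from mouse induced pluripotent stem cells (iPSCs) of 3 lines. These were Hmga2 wt cells, all 6 libraries of which carry the source name wt iPSC #1, and 2 clones with a knockout of Hmga2, KO#1 and KO#2. Sampling took place at 0 h, in iPSCs, and at 24 h of induction into epiblast-like cells (EpiLCs), with 3 replicates a group, which makes 6 groups and 18 libraries. At 0 h all lines were kept over mitotically inactivated fibroblast feeders with serum, leukaemia inhibitory factor and inhibitors of MEK and GSK3. For induction all lines were replated on Geltrex, a basement membrane matrix, in medium with N2, B27, Activin A and bFGF. The loss of feeders and inhibitors therefore went along with the time point in every line. As each line has 1 source name for all its libraries, genotype and clone cannot be told apart. The sample titles call the replicates biological, and the methods of the study call them independent and biological. Neither says what separates them, and p-values measure the spread between these libraries, which may be technical.

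Pluripotent cells keep their identity through a set of transcription factors that bind each other's genes. OCT4, the POU-domain protein encoded by Pou5f1, and SOX2, an HMG-box protein, bind side by side on composite DNA elements and are needed in the naive state, which resembles the epiblast before implantation, and in the formative state that EpiLCs stand for. SALL4 is a zinc finger protein that works with both, UTF1 is a chromatin protein restricted to pluripotent and germ cells, and DPPA2 and DPPA4 are SAP-domain partners that bind chromatin together. ZFP281 is a zinc finger factor known for its role in the passage from naive to primed pluripotency.

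The symbol Tcf3 needs care. In the count table it belongs to the gene of E2A, a basic helix-loop-helix protein that pairs with the ID and other helix-loop-helix proteins (ENSMUSG00000020167), whereas work on pluripotency has long used the name TCF3 for TCF7L1, a partner of beta-catenin that represses pluripotency genes. RefSeq still lists Tcf3 as a synonym of Tcf7l1. Tcf3 is therefore described as the E2A gene, and Tcf7l1 is given beside it.

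On GRCm38, with GENCODE M21 gene models, Pou5f1 (ENSMUSG00000024406) lies at chr17:35506018-35510772 and Sox2 (ENSMUSG00000074637) at chr3:34650405-34652461, both on the plus strand. Sall4 (ENSMUSG00000027547) lies at chr2:168748332-168767943 and Tcf3 at chr10:80409514-80433647, both on the minus strand. Utf1 (ENSMUSG00000047751) lies at chr7:139943789-139945112 and Zfp281 (ENSMUSG00000041483) at chr1:136624901-136630053, on the plus strand. Dppa4 (ENSMUSG00000058550) at chr16:48283733-48294237 and Dppa2 (ENSMUSG00000072419) at chr16:48303908-48319723 are neighbours on the plus strand, 9670 bp apart, with 0 annotated genes starting between them. Sox2 sits inside Sox2ot, a long noncoding RNA gene of the same strand with which it shares no exon base. Exons of Pou5f1 and Sall4 overlap Gm19553 and Gm14261 on the other strand, and these had at most 15 and 17 counts in any library. How reads of overlapping genes were assigned is not given in the sources used here, so such counts carry that uncertainty. The Pou5f1-like copies Gm2071 and Gm6539 had at most 1 count in any library.

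RefSeq's promoter windows for GRCm38.p6, which run from 250 bases before to 50 bases after a transcript's start, matched 5 of the 8 genes, namely Pou5f1, Sox2, Utf1, Tcf3 and Zfp281. The windows of 4 genes that stand for the 4 patterns reported below are shown 5′ to 3′, Pou5f1 as the gene with the highest level, Sox2 as one that fell, Utf1 as one that rose and Zfp281 as one that was higher in KO#2. They are the windows chr17:35505782-35506081 for Pou5f1, chr3:34649745-34650044 for Sox2, chr7:139943606-139943905 for Utf1 and chr1:136624651-136624950 for Zfp281, all on the plus strand. Capitals mark the GC box GGGCGG on either strand (CCGCCC when read on the other).
Pou5f1: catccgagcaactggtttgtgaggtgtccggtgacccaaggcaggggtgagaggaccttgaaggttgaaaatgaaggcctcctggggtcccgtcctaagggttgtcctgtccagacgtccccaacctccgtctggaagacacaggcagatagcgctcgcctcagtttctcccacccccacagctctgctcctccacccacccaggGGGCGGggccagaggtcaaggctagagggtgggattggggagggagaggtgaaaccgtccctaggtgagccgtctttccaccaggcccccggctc
Sox2: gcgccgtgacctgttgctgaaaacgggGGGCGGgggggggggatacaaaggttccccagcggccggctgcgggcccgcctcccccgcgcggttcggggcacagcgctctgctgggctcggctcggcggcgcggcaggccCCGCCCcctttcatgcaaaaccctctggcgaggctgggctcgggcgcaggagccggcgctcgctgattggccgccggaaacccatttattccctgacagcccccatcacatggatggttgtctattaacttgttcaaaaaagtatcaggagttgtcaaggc
Utf1: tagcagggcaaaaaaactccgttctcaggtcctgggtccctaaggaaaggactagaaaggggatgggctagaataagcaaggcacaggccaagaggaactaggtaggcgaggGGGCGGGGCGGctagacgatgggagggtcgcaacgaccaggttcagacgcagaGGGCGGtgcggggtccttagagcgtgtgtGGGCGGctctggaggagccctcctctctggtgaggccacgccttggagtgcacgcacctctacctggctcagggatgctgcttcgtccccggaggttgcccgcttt
Zfp281: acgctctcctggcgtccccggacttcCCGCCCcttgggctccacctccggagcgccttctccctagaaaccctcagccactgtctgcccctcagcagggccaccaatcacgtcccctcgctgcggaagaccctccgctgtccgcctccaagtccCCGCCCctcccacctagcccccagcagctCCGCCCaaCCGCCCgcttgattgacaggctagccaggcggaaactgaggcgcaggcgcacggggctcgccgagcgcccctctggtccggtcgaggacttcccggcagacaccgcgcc

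The GC box was found 1 time in the Pou5f1 window, 2 times in that of Sox2 and 4 times in each of those of Utf1 and Zfp281, where a pair of the Utf1 boxes overlap. It was present in 35.7% of 32851 promoter windows of this length. The octamer ATGCAAAT, the letters that POU-domain proteins favour, and CATTGTT, a core that SOX proteins favour, were in none of these 4 windows on either strand, and were in 1.74% and 3.78% of all windows. RefSeq lists a second Pou5f1 window, chr17:35508557-35508856, which holds CATTGTT 1 time, counting both strands, and neither the octamer nor the GC box. The window of Sox2 ends before the GENCODE start of the gene used for its position, because RefSeq places the start farther upstream. These matches describe the letters of the windows only.

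Total counts ranged from 3466436 to 23872837 per library, and each of the 8 genes had at least 107 counts in every library. Levels are given as CPM, counts per 1000000 counts after the library totals were scaled by edgeR's TMM factors. Protein-coding genes held between 41.3% and 84.7% of the counts of a library, with the highest shares in the 24 h libraries labelled KO#2. At 24 h the gene Rn7s1 alone held 11.7% to 19.9% of the counts in wt and KO#1 libraries. In the 24 h libraries labelled KO#2 the most abundant gene held 2.60% to 7.07%. The TMM factors at 24 h were 0.507 to 0.838 in wt cells and KO#1, and 1.31 to 1.45 in KO#2. The alternative named library sizes alone below used no such factors. At 0 h the targeted gene Hmga2 stood at 17.7 ± 4.53 CPM in wt cells, 5.50 ± 4.28 in KO#1 and 4.73 ± 3.25 in KO#2 (SD, n = 3). At 24 h it had 5.77 ± 0.226 CPM in wt cells, 2.26 ± 1.40 in KO#1 and 5.65 ± 4.17 in KO#2, where replicate 1 had 10.5 CPM and the others 3.02 and 3.48, both below every wt library. Against wt cells it was called in edgeR for KO#2 at 0 h (-1.90, adjusted p = 0.0230), where leaving out replicate 3 of wt or replicate 1 or 2 of KO#2 lost the call (adjusted p up to 0.0863). It was not called for KO#1 at 0 h (-1.71, adjusted p = 0.124, and 0.0437 without its replicate 1) or 24 h (-1.36, adjusted p = 0.22), nor for KO#2 at 24 h (-0.04, adjusted p = 0.966, and -0.82, adjusted p = 0.35, without its replicate 1). As replicate 1 of KO#2 at 24 h lies above the wt libraries, the libraries of that clone are called the KO#2-labelled libraries throughout. The study also probed Hmga2 protein by western blot in wt and KO clones, and RNA counts do not measure protein. Pou5f1, Sox2, Sall4, Utf1 and Nanog, the pluripotency markers, summed to between 1194 and 2936 CPM in each library, but 4 of these 5 are members described here and are no independent check of the label. The other one, Nanog, had 482 ± 78.3 CPM in wt cells at 0 h and 19.5 ± 7.75 at 24 h. The 8 feeder markers Dcn, Lox, Thy1, Postn, Acta2, Col3a1, Col1a1 and Col1a2 summed to between 110 and 898 CPM at 0 h and between 19.0 and 219 CPM at 24 h, with the highest value of each time point in a library labelled KO#2. Replicate 1 of wt at 0 h was the shallowest library, and replicate 1 of KO#2 at 24 h had the highest feeder sum of its time point, so changed calls of the 8 genes, Tcf7l1, Sox2ot and Hmga2 without either are given where they arise.

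Pou5f1 had the highest level of the 8 genes in all 6 groups, and the order of the others turned over between 0 h and 24 h. In wt cells at 0 h, the length-scaled level was 509 ± 131 CPM per kb of exon for Pou5f1, 157 ± 33.1 for Sox2 and 86.5 ± 29.3 for Sall4 (SD, n = 3 each). Utf1 (45.6 ± 17.7), Tcf3 (36.9 ± 17.7), Dppa4 (24.9 ± 4.40), Dppa2 (16.9 ± 0.727) and Zfp281 (9.04 ± 1.16) followed on the same scale. Neighbours in this order overlapped in their replicates from Sall4 through Utf1 and Tcf3 to Dppa4, and did not overlap elsewhere. At 24 h the wt order was Pou5f1 (628 ± 101 CPM per kb), Utf1 (172 ± 32.9), Dppa4 (92.0 ± 25.2) and Dppa2 (61.7 ± 7.36), then Sox2 (30.5 ± 6.60), Sall4 (23.4 ± 6.62), Tcf3 (16.9 ± 2.72) and Zfp281 (13.6 ± 1.53). Dppa4 overlapped Dppa2 there, and Sox2, Sall4 and Tcf3 each overlapped the next gene.
Sox2 was thus the gene next to Pou5f1 in every line at 0 h, and Utf1 held that place in every line at 24 h. At 0 h, Sox2 did not overlap Pou5f1 above it or the gene below it in any line. At 24 h, Utf1 overlapped Dppa4 in KO#1 and in the KO#2-labelled libraries, and did not in wt cells. Zfp281 was last in wt cells and KO#1 at both time points, whereas Tcf3 was last in the KO#2-labelled libraries, at 10.2 ± 2.48 CPM per kb against 14.9 ± 1.29 for Zfp281 at 0 h and at 13.0 ± 5.31 against 23.7 ± 2.63 at 24 h, with no overlap at either time point.

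**Figure D1:**
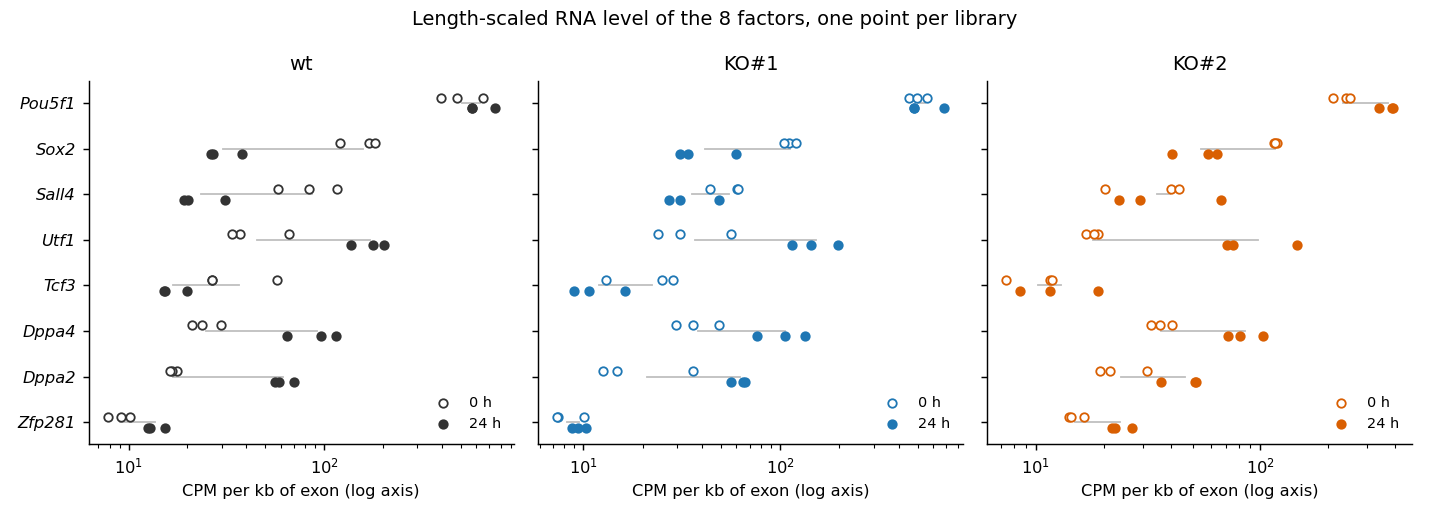
Length-scaled RNA level (CPM per kb of exon, log axis) of the 8 genes in wt cells, KO#1 and the KO#2-labelled libraries, with 1 point per library, open at 0 h and filled at 24 h, and a grey line between the group means. Pou5f1 lies highest in every panel, and in wt cells Sox2 moves from 157 to 30.5 CPM per kb while Utf1 moves from 45.6 to 172.

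The change from 0 h to 24 h asked what became of these genes as the cells left the naive state. In wt cells Utf1, Dppa4, Dppa2 and Zfp281 rose, the last of these not with library sizes alone (-0.04), while Sox2, Sall4 and Tcf3 fell and Pou5f1 did not pass the test. In KO#1, Utf1, Dppa4 and Dppa2 rose and Sox2 fell. The KO#2-labelled libraries showed the same 4 changes and a rise of Zfp281. The tests were edgeR's quasi-likelihood tests with Benjamini-Hochberg adjustment over all 16619 genes at 0.05. The counts of 7, 4 and 5 of 8 stand beside 50.7%, 40.8% and 26% of all tested genes called in wt cells, KO#1 and the KO#2-labelled libraries. By direction, 26%, 20.1% and 12.7% of all genes rose and 24.7%, 20.6% and 13.3% fell, in the same order. The shares were 9.55%, 5.04% and 7.65% that rose and 35.2%, 39.1% and 9.83% that fell with library sizes alone. The replicates of the time points did not overlap for 7, 4 and 6 of the 8 genes, against 57.9%, 44.5% and 44.7% of all genes. The median log2 fold change of the 8 genes was 0.45, 0.16 and 0.67, and that of all tested genes was 0.03, 0.00 and -0.03. Since the feeder sum fell with time in every line, although its gene Dcn stood higher at 24 h in wt cells (0 CPM in each library at 0 h and 4.45 to 8.33 at 24 h), and bulk RNA cannot tell fewer cells of a type from less RNA per cell, the part of feeder RNA in these changes was not tested. Of 6 primitive endoderm genes, 0 rose and 3 fell in wt cells, 0 rose and 2 fell in KO#1, and 4 rose and 1 fell in the KO#2-labelled libraries, where their sum was 8.63 to 11.3 CPM at 0 h and 14.2 to 28.2 at 24 h, and their part was not tested either.

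**Figure D2:**
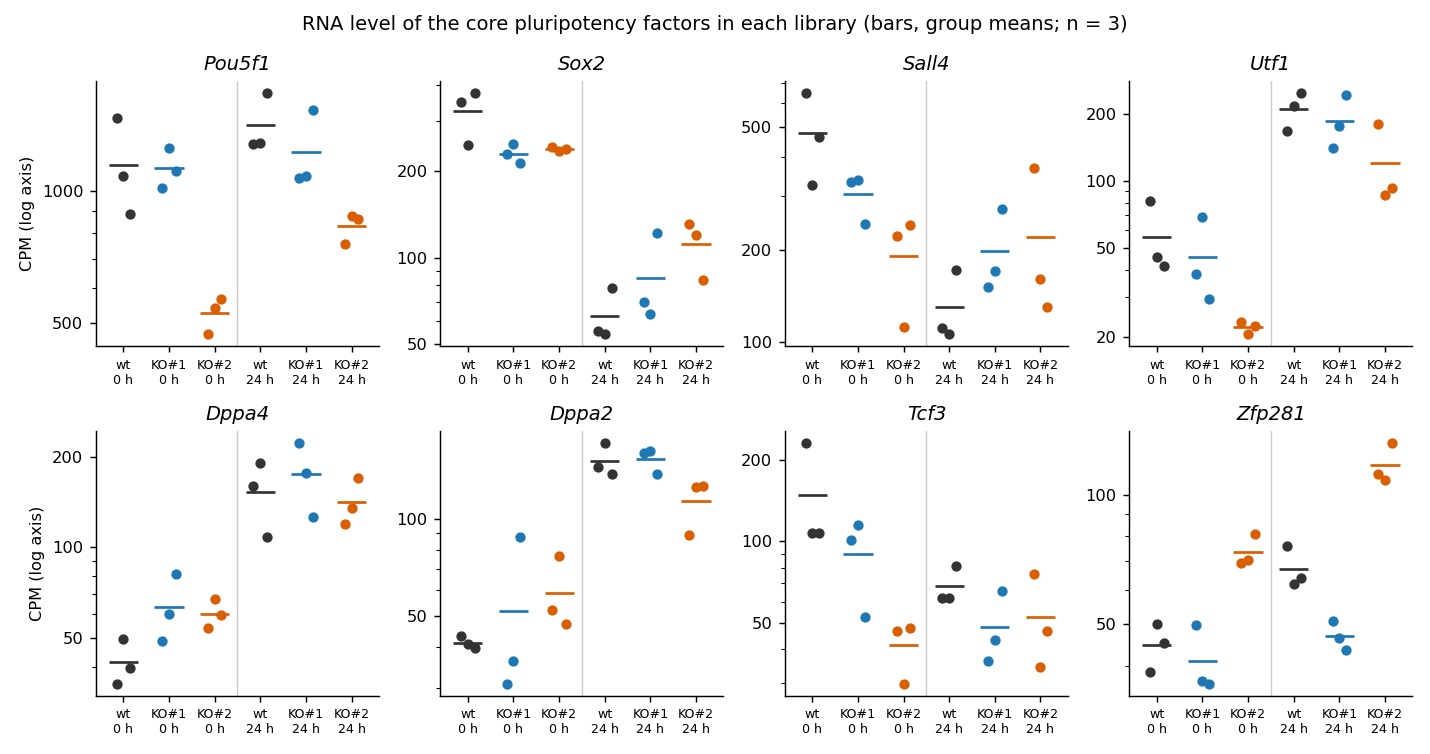
RNA level in CPM (log axis) of each of the 8 genes in the 18 libraries, by line and time point, with 1 point per library and a bar at the mean of the 3 replicates. Sox2 lies lower and Utf1, Dppa4 and Dppa2 lie higher at 24 h than at 0 h in all 3 lines, and Zfp281 lies highest in the KO#2-labelled libraries at both time points.

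Pou5f1 kept a high level through the induction. Its CPM at 0 h were 1465, 1079 and 886 in wt cells, 1015, 1256 and 1110 in KO#1 and 472, 539 and 567 in the KO#2-labelled libraries. At 24 h they were 1278, 1286 and 1673 in wt cells, 1073, 1083 and 1528 in KO#1 and 756, 878 and 864 in the KO#2-labelled libraries. The time points overlapped in wt cells and KO#1, and every 24 h library labelled KO#2 lay above every 0 h library of that clone. The log2 fold change was 0.30 in wt cells (SE 0.25, adjusted p = 0.314), 0.12 in KO#1 (SE 0.25, adjusted p = 0.715) and 0.66 for the KO#2-labelled libraries (SE 0.25, adjusted p = 0.0571), all from edgeR's quasi-likelihood test. The last of these passed the threshold in DESeq2 (0.70, adjusted p = 0.00777) and in edgeR with DESeq2's size factors (0.70, adjusted p = 0.0468). It also passed in edgeR with protein-coding genes only (0.71, adjusted p = 0.0303) and with the replicate number as a block (0.66, adjusted p = 0.0490).

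Sox2 fell in all 3 lines. At 0 h it had 349, 247 and 376 CPM in wt cells, 229, 249 and 214 in KO#1 and 243, 236 and 240 in the KO#2-labelled libraries. At 24 h it had 55.6, 54.1 and 78.3 CPM in wt cells, 69.8, 63.6 and 122 in KO#1 and 131, 120 and 83.2 in the KO#2-labelled libraries. No 24 h library of any line reached a 0 h library of that line, and the wt cells went from the highest group mean (324 ± 68.0 CPM) to the lowest (62.7 ± 13.6). The fall was 2.37 on the log2 scale in wt cells (written -2.37, SE 0.28, adjusted p = 5.59e-06, edgeR). The same edgeR fit gave -1.44 for KO#1 (SE 0.27, adjusted p = 0.000616) and -1.10 for the KO#2-labelled libraries (SE 0.27, adjusted p = 0.00572). All 3 calls held with each library of the line left out in turn, at log2 fold changes from -2.61 to -2.25, from -1.80 to -1.28 and from -1.23 to -0.93.
Sox2ot, the noncoding gene around Sox2, had far lower levels, between 0.309 and 10.5 CPM. It also fell in each line, with log2 fold changes of -2.04 in wt cells (adjusted p = 0.0151), -2.15 in KO#1 (adjusted p = 0.0141) and -1.76 for the KO#2-labelled libraries (adjusted p = 0.0214) in edgeR. In fits that left out 1 library, added after seeing the data, these calls held in 3, 4 and 2 of 6, with adjusted p values up to 0.0648, 0.0907 and 0.105. They were lost without replicate 3 of wt at 0 h or replicate 1 or 3 at 24 h, without replicate 1 of KO#1 at 0 h or 3 at 24 h, and without replicate 1 or 3 of KO#2 at 0 h or 2 or 3 at 24 h. Replicate 1 of KO#2 at 24 h had 4.65 CPM against 1.97 and 0.956 in the others, and without it the change was -2.52 (adjusted p = 0.00464, edgeR).

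Sall4 fell in wt cells and did not pass the test in the KO clones, except in KO#1 with library sizes alone (-1.35, adjusted p = 0.0183, edgeR). Its wt libraries had 647, 323 and 466 CPM at 0 h and 111, 106 and 172 at 24 h, with no overlap. In KO#1 it had 332, 337 and 243 CPM at 0 h and 151, 171 and 272 at 24 h, where the highest 24 h library lay above the lowest 0 h library. In the KO#2-labelled libraries it had 221, 112 and 240 CPM at 0 h and 369, 160 and 130 at 24 h, so that the time points overlapped and replicate 1 of 24 h stood above the rest. The log2 fold change was -1.88 in wt cells (SE 0.40, adjusted p = 0.00101), -0.62 in KO#1 (SE 0.39, adjusted p = 0.211) and 0.20 for the KO#2-labelled libraries (SE 0.39, adjusted p = 0.748) from edgeR. Without replicate 1 of KO#2 at 24 h the last value was -0.39 (adjusted p = 0.468, edgeR), and without replicate 2 of KO#2 at 0 h it was -0.07 (adjusted p = 0.924, edgeR). In that replicate 1, the 8 feeder genes summed to 219 CPM against 71.0 and 122 in the others, and its part in the Sall4 value was not tested.

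Utf1 had the largest rise of the 8 genes in every line. In wt cells its lead over Dppa4 (1.88 on the log2 scale) and Dppa2 (1.87) was smaller than its SE of 0.36. At 0 h Utf1 had 81.0, 45.5 and 41.5 CPM in wt cells, 38.2, 68.7 and 29.5 in KO#1 and 23.2, 20.6 and 22.3 in the KO#2-labelled libraries. At 24 h it had 168, 218 and 248 CPM in wt cells, 141, 176 and 243 in KO#1 and 180, 86.9 and 93.1 in the KO#2-labelled libraries. The time points did not overlap in any line. The rises were 1.93 in wt cells (SE 0.36, adjusted p = 0.000316), 2.05 in KO#1 (SE 0.36, adjusted p = 0.000337) and 2.44 for the KO#2-labelled libraries (SE 0.36, adjusted p = 0.000124) as log2 fold changes in edgeR. Each held with any 1 library of its line left out, at the lowest 1.75, 1.80 and 2.03. Across the 6 groups Utf1 had the widest span of the 8 genes, 9.59-fold between the lowest group mean (22.05 ± 1.37 CPM, libraries labelled KO#2 at 0 h) and the highest (211 ± 40.4 CPM, wt at 24 h).

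The neighbours Dppa4 and Dppa2 rose in all 3 lines, except that with library sizes alone edgeR lost both calls in KO#1 (0.62, adjusted p = 0.102, and 0.73, adjusted p = 0.0927) and that of Dppa2 in the KO#2-labelled libraries (0.91, adjusted p = 0.071). Dppa4 had 35.1, 49.4 and 39.6 CPM in wt cells at 0 h and 160, 191 and 108 at 24 h. In KO#1 it went from 48.9, 59.7 and 81.3 CPM to 223, 177 and 126, and in the KO#2-labelled libraries from 53.9, 67.0 and 59.5 to 120, 135 and 170. No pair of time points overlapped. The log2 fold changes of Dppa4 were 1.88 in wt cells (SE 0.28, adjusted p = 4.19e-05), 1.47 in KO#1 (SE 0.27, adjusted p = 0.000533) and 1.24 for the KO#2-labelled libraries (SE 0.27, adjusted p = 0.00272) in edgeR.
Dppa2 had 43.3, 41.0 and 39.8 CPM in wt cells at 0 h and 144, 172 and 138 at 24 h. It went from 30.9, 36.3 and 87.8 CPM to 159, 161 and 138 in KO#1, and from 52.3, 76.8 and 47.4 to 88.7, 125 and 126 in the KO#2-labelled libraries. The time points did not overlap in any line, although replicate 3 of KO#1 at 0 h held more than 2 times the level of replicates 1 and 2. The log2 fold changes of Dppa2 were 1.87 (SE 0.32, adjusted p = 0.000156), 1.55 (SE 0.31, adjusted p = 0.00104) and 0.95 (SE 0.31, adjusted p = 0.0307) in wt cells, KO#1 and the KO#2-labelled libraries, from edgeR. The last call was lost in 4 of 6 fits that left out 1 library (without replicate 1 or 3 of KO#2 at 0 h, or replicate 2 or 3 at 24 h), at log2 fold changes from 0.81 to 0.87 and an adjusted p of at most 0.118 in edgeR, and with at least 10 counts in every library (0.82, adjusted p = 0.0524).
Within the pair, the level of Dppa2 relative to Dppa4, per kb, lay between -1.28 and -0.21 on the log2 scale over the 18 libraries, with a median of -0.70. Their log2 CPM had a Pearson's r of 0.93 over the 18 libraries, which share lines and time points, and Dppa4 had an r of -0.95 with Sox2.

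Tcf3, the E2A gene, fell in wt cells. Its wt libraries had 232, 107 and 108 CPM at 0 h and 62.1, 61.6 and 80.9 at 24 h, with no overlap. In KO#1 it had 101, 115 and 52.8 CPM at 0 h and 36.2, 43.3 and 65.5 at 24 h. The KO#2-labelled libraries had 46.6, 29.8 and 47.7 CPM at 0 h and 76.1, 34.4 and 46.6 at 24 h, and in both KO clones the time points overlapped. The log2 fold change was -1.12 in wt cells (SE 0.37, adjusted p = 0.0171), -0.89 in KO#1 (SE 0.37, adjusted p = 0.0601) and 0.34 for the KO#2-labelled libraries (SE 0.36, adjusted p = 0.531) in edgeR. The wt call rested on a few libraries, since the value was -0.69 without replicate 1 of wt at 0 h (adjusted p = 0.125), -1.07 without replicate 1 of wt at 24 h (adjusted p = 0.0534) and -1.08 without replicate 2 of wt at 24 h (adjusted p = 0.0528), all in edgeR. The KO#1 value passed in DESeq2 (-0.89, adjusted p = 0.0485), and in edgeR without replicate 3 of KO#1 at 0 h (-1.16, adjusted p = 0.0187) or at 24 h (-1.18, adjusted p = 0.0290). It also passed in edgeR with library sizes alone (-1.62, adjusted p = 0.00301), no filter (-0.86, adjusted p = 0.0181), at least 10 counts in every library (-0.96, adjusted p = 0.041) and protein-coding genes only (-0.88, adjusted p = 0.0494). Without replicate 1 of KO#2 at 24 h, Tcf3 in that clone stood at -0.03 (adjusted p = 0.972, edgeR).
Tcf7l1, the gene known in pluripotency work under the same name, had 111, 40.2 and 43.3 CPM in wt cells at 0 h and 6.92, 7.91 and 7.47 at 24 h. Its log2 fold change was -3.11 in wt cells (adjusted p = 0.0016) and -2.77 in KO#1 (adjusted p = 0.00487) in edgeR. In the KO#2-labelled libraries it had 28.1, 6.12 and 21.9 CPM at 0 h and 30.2, 6.08 and 3.48 at 24 h, which overlapped (-0.50, adjusted p = 0.61, edgeR). Replicate 1 of 24 h stood apart for Tcf7l1 as it did for Sall4, and without it Tcf7l1 was called (-1.96, adjusted p = 0.0244, edgeR).

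Zfp281 rose by a smaller amount. At 0 h it had 38.7, 50.1 and 45.1 CPM in wt cells, 49.8, 36.7 and 36.3 in KO#1 and 69.4, 70.4 and 81.0 in the KO#2-labelled libraries. At 24 h it had 75.9, 61.9 and 63.9 CPM in wt cells, 50.9, 46.4 and 43.4 in KO#1 and 112, 108 and 132 in the KO#2-labelled libraries. The time points did not overlap in wt cells and in the KO#2-labelled libraries, and overlapped in KO#1. The log2 fold change was 0.59 in wt cells (SE 0.19, adjusted p = 0.0171), and it was -0.04 with library sizes alone, a scaling that moved the median of all genes by -0.61 in this comparison. It was 0.67 in the KO#2-labelled libraries (SE 0.19, adjusted p = 0.0146) and 0.20 in KO#1 (SE 0.19, adjusted p = 0.429), from edgeR. In edgeR the wt call was lost without replicate 1 of wt at 0 h (0.46, adjusted p = 0.0899), without replicate 1 of wt at 24 h (0.47, adjusted p = 0.0916) and without a filter on low counts (0.60, adjusted p = 0.111). The other call was lost in edgeR without replicate 1 of KO#2 at 0 h (0.63, adjusted p = 0.0651), without replicate 3 of KO#2 at 24 h (0.58, adjusted p = 0.0732) without a filter (0.69, adjusted p = 0.0896) and with library sizes alone (0.63, adjusted p = 0.157).

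**Figure D3:**
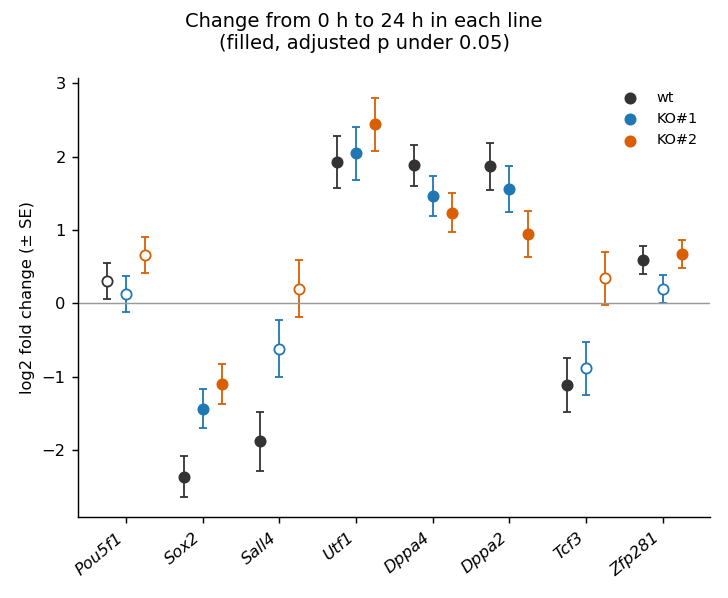
Log2 fold change from 0 h to 24 h (± SE, edgeR) of each gene in wt cells, KO#1 and the KO#2-labelled libraries, filled where the adjusted p was under 0.05. Sox2 lies below 0 and Utf1, Dppa4 and Dppa2 above 0 in all 3 lines, while Sall4 lies at -1.88, -0.62 and 0.20, and the wt value of Zfp281 (0.59) fell to -0.04 with library sizes alone.

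Whether the change with time differed between a KO clone and wt cells was tested as an interaction term, and 0 of the 8 genes passed in edgeR for either clone, against 0.391% of all genes for KO#1 (0.253% higher and 0.138% lower) and 1.47% for the KO#2-labelled libraries (0.951% higher and 0.517% lower). An unadjusted p under 0.05 was reached by 2 genes for KO#1 (Sox2 and Sall4) and by 4 for the KO#2-labelled libraries (Sox2, Sall4, Dppa2 and Tcf3), against 10.1% and 23.6% of all genes, and DESeq2 called 0 and 3, against 1.66% and 8.48%. In the same test with library sizes alone, edgeR called 4.55% of all genes as higher and 0.271% as lower in the response of the KO#2-labelled libraries, and for KO#1 0.012% each way. The difference of Sall4 between the KO#2-labelled libraries and wt cells was 2.08 on the log2 scale (SE 0.56, adjusted p = 0.0647, edgeR), and DESeq2 gave 2.14 (adjusted p = 0.00653). It passed in edgeR with library sizes alone (2.59), with no filter (2.07) and with protein-coding genes only (2.16), and also without replicate 2 of wt at 0 h (2.30, adjusted p = 0.0424) or replicate 3 of KO#2 at 24 h (2.36, adjusted p = 0.0285). With the replicate number as a block it was 2.04 (adjusted p = 0.0491, edgeR). Without replicate 1 of KO#2 at 24 h it was 1.49 (adjusted p = 0.199, edgeR). For Sox2 the difference was 1.27 (SE 0.38, adjusted p = 0.0841, edgeR) and 1.32 in DESeq2 (adjusted p = 0.0117), and it passed in edgeR without replicate 3 of KO#2 at 24 h (1.44, adjusted p = 0.0485) and with protein-coding genes only (1.34, adjusted p = 0.0463). For Tcf3 it was 1.46 (SE 0.52, adjusted p = 0.121, edgeR) and 1.53 in DESeq2 (adjusted p = 0.04998), and it passed in edgeR with library sizes alone (1.96, adjusted p = 0.0487) and with no filter (1.45, adjusted p = 0.0144). In KO#1 the differences were 0.93 for Sox2 (SE 0.38, adjusted p = 0.383) and 1.26 for Sall4 (SE 0.55, adjusted p = 0.433) in edgeR, and neither passed in DESeq2. The 2 clones were compared with the same wt libraries.

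Each KO clone was then compared with wt cells at each time point, the comparison that the study's design sets for the loss of Hmga2. In KO#1, 0 of the 8 genes differed from wt cells at 0 h and 0 at 24 h in edgeR, where 6.67% (3.99% higher, 2.68% lower) and 9.86% (6.25% higher, 3.61% lower) of all genes were called. At 0 h library sizes alone gave 3.44% higher and 1.38% lower. An unadjusted p under 0.05 was reached by Dppa4 at 0 h (0.61, SE 0.27) and by Zfp281 at 24 h (-0.52, SE 0.19), 1 of 8 at each time against 19.9% and 22.3% of all genes. DESeq2 called 0 genes at 0 h and 1, Zfp281, at 24 h (-0.51, adjusted p = 0.0344), against 9.12% and 12.8% of all genes. At 0 h no gene had replicates apart from those of wt cells, against 20.5% of all genes. At 24 h only Zfp281 had, against 29.1% of all genes. The 8 log2 fold changes lay between -0.73 (Tcf3) and 0.61 (Dppa4) at 0 h and between -0.52 (Zfp281) and 0.61 (Sall4) at 24 h, with SEs between 0.19 and 0.39. The feeder sum was 183 to 514 CPM in KO#1 and 110 to 390 in wt cells at 0 h, and 38.7 to 51.8 and 19.0 to 34.6 at 24 h. The 6 primitive endoderm genes summed to 6.26 to 9.64 CPM against 4.87 to 6.23 at 0 h and 2.99 to 7.79 against 1.36 to 1.99 at 24 h. The part of either cell type was not tested.

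In the KO#2-labelled libraries at 0 h, Pou5f1, Sall4, Utf1 and Tcf3 were lower than in wt cells and Zfp281 was higher, 5 of 8 genes against 38.1% of all genes called, with 16.6% of all genes lower and 21.5% higher. The replicates of all 8 genes lay apart from those of wt cells, against 52.9% of all genes. Pou5f1 was lower by 1.12 on the log2 scale (written -1.12, SE 0.25, adjusted p = 0.00284, edgeR), with 526 ± 48.9 CPM against 1144 ± 295. Tcf3 showed the largest difference, -1.84 (SE 0.37, adjusted p = 0.0015, edgeR), with 41.4 ± 10.0 CPM against 149 ± 71.5. Without the shallow replicate 1 of wt at 0 h, which had 232 CPM, it was still called, and its lowest size in any fit that left out 1 library was -1.41. For Utf1 the difference was -1.33 (SE 0.35, adjusted p = 0.00793, edgeR).
For Sall4 it was -1.32 (SE 0.40, adjusted p = 0.0152, edgeR), and in edgeR it was lost without replicate 1 of wt at 0 h (-1.08, adjusted p = 0.0629) or without replicate 2 of KO#2 at 0 h (-1.05, adjusted p = 0.0688). With library sizes alone, which moved the median of all genes by 0.45 and called 29.9% of them higher and 3.2% lower, the calls of Pou5f1 (-0.62), Sall4 (-0.82) and Utf1 (-0.82) were lost, and those of Tcf3 and Zfp281 were not. Zfp281 was higher by 0.72 (SE 0.19, adjusted p = 0.0086, edgeR). Sox2 (-0.43, adjusted p = 0.2), Dppa4 (0.53, adjusted p = 0.122) and Dppa2 (0.51, adjusted p = 0.198) did not pass in edgeR although their replicates did not overlap those of wt cells. With library sizes alone edgeR called Dppa4 (0.98, adjusted p = 0.0159) and Dppa2 (0.97, adjusted p = 0.0354), and with at least 10 counts in every library it called Dppa4 (0.72, adjusted p = 0.043). Tcf7l1 was lower too (-1.77, adjusted p = 0.0424, edgeR), a call that held in 2 of 6 fits that left out 1 library. It was lost without replicate 1 of wt (-1.19, adjusted p = 0.187), which stood at 111 CPM, replicate 3 of wt (adjusted p = 0.0506), or replicate 2 (-1.35, adjusted p = 0.14) or 3 (adjusted p = 0.0749) of KO#2 in edgeR. Sox2ot was higher (1.86, adjusted p = 0.0178, edgeR), except without replicate 2 of wt (1.46, adjusted p = 0.0798) or replicate 3 of KO#2 (1.68, adjusted p = 0.052). The feeder sum lay between 331 and 898 CPM in the KO#2-labelled libraries and between 110 and 390 in wt cells, with 1 of the 8 feeder genes, Dcn, at 0 counts in all 3 wt libraries. Of 6 primitive endoderm genes 3 were higher and 1 lower, with sums of 8.63 to 11.3 CPM against 4.87 to 6.23, and the part of either cell type in these differences was not tested.

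At 24 h the KO#2-labelled libraries had more Sox2 and Zfp281 than wt cells, and less Pou5f1 except with library sizes alone (0.26), 3 of 8 genes against 37.3% of all genes called (21.3% higher and 16% lower, and 58.2% and 3.2% with library sizes alone). Here 4 genes, Pou5f1, Sox2, Dppa2 and Zfp281, had replicates apart from those of wt cells, against 52.1% of all genes. Zfp281 was higher by 0.80 (SE 0.19, adjusted p = 0.00349, edgeR), with 117 ± 13.0 CPM against 67.2 ± 7.55, and stayed called in all 6 fits that left out 1 library. Sox2 was higher by 0.83 (SE 0.27, adjusted p = 0.0214, edgeR), with 112 ± 25.1 CPM against 62.7 ± 13.6, and the call was lost without replicate 1 or 2 of either group, at log2 fold changes from 0.70 to 0.78 and adjusted p values up to 0.0925 in edgeR. Pou5f1 was lower by 0.76 on the log2 scale (written -0.76, SE 0.25, adjusted p = 0.0225, edgeR), but was 0.26 with library sizes alone, a scaling that moved the median of all genes by 1.04.
That call was also lost in edgeR without replicate 3 of wt (-0.60, adjusted p = 0.116), replicate 1 of KO#2 (-0.69, adjusted p = 0.0865) or replicate 2 of KO#2 (-0.80, adjusted p = 0.05005), and without a filter on low counts (-0.73, adjusted p = 0.112). Utf1 stood at -0.82 (SE 0.34, adjusted p = 0.0689, edgeR), and was called without replicate 1 of KO#2 (-1.23, adjusted p = 0.0184, edgeR) and without a filter (-0.79, adjusted p = 0.0406, edgeR). Sall4 stood at 0.76 (SE 0.39, adjusted p = 0.135) with replicate 1 of KO#2 and at 0.17 (adjusted p = 0.77) without it in edgeR, and was called with library sizes alone (1.78, adjusted p = 0.00216). Dppa4 (-0.11), Dppa2 (-0.41) and Tcf3 (-0.38) did not pass, and turned to 0.99, 0.66 and 0.64 with library sizes alone, where edgeR called Dppa4 (adjusted p = 0.00808). At 24 h the feeder sum was 71.0 to 219 CPM in the KO#2-labelled libraries and 19.0 to 34.6 in wt cells, and 6 primitive endoderm genes (Gata6, Gata4, Sox17, Sox7, Pdgfra and Dab2) summed to between 14.2 and 28.2 CPM against 1.36 and 1.99. In the 3 wt libraries at 24 h Gata6 and Pdgfra had at most 7 and 6 counts, and the part of either cell type in these differences was not tested.

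**Figure D4:**
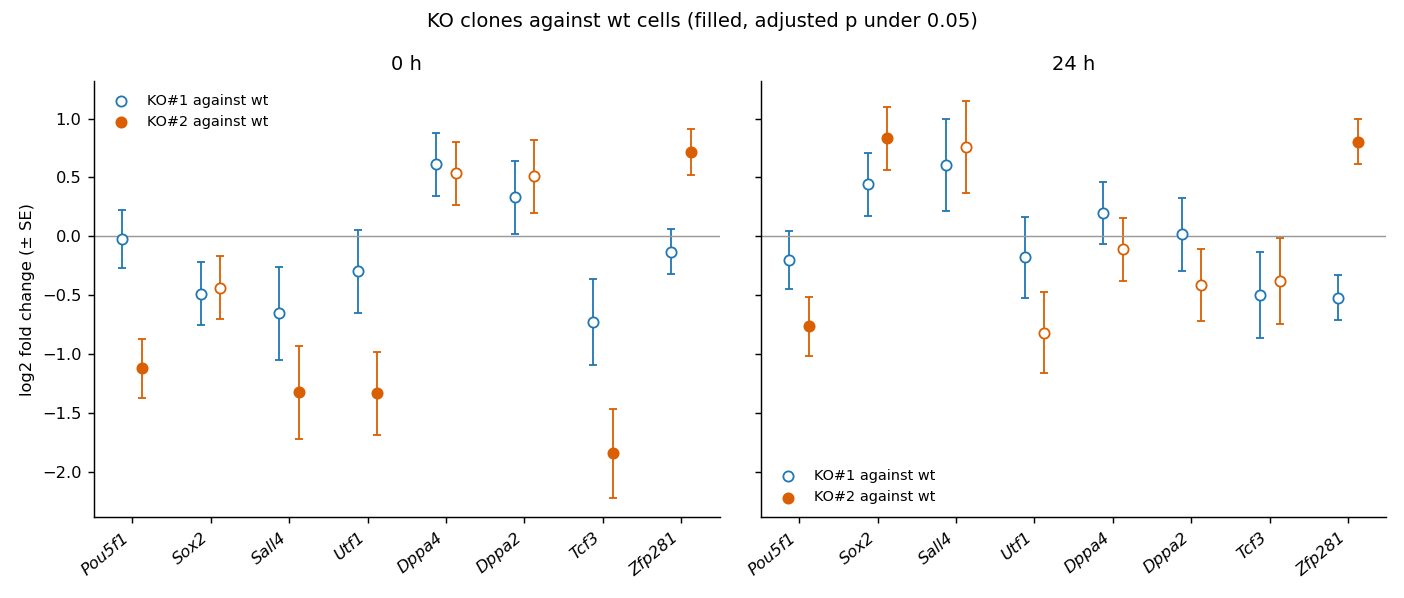
Log2 fold change of KO#1 and of the KO#2-labelled libraries against wt cells (± SE, edgeR) at 0 h and at 24 h, filled where the adjusted p was under 0.05. No KO#1 point is filled, and Zfp281 in the KO#2-labelled libraries lies at 0.72 and 0.80, while the value of Pou5f1 at 24 h (-0.76) turned to 0.26 with library sizes alone.

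The KO clones also differed from each other. At 0 h, Pou5f1 (-1.10, SE 0.25, adjusted p = 0.00472), Utf1 (-1.03, SE 0.35, adjusted p = 0.0368) and Tcf3 (-1.11, SE 0.37, adjusted p = 0.0331) were lower and Zfp281 (0.85, SE 0.19, adjusted p = 0.00471) was higher in the KO#2-labelled libraries than in KO#1 in edgeR, 4 of 8 genes against 26.4% of all genes (15.1% higher and 11.3% lower, and 19% and 1.97% with library sizes alone). Of 6 fits that left out 1 library, Utf1 was called only without replicate 1 or 3 of KO#1 and Tcf3 only without replicate 3 of KO#1, with adjusted p values up to 0.191 and 0.113 in the others, and Pou5f1 and Zfp281 were called in all 6. With library sizes alone the calls of Pou5f1 (-0.78, adjusted p = 0.11), Utf1 (-0.69, adjusted p = 0.217) and Tcf3 (-0.78, adjusted p = 0.181) were lost in edgeR, as were those of Utf1 (-0.84, adjusted p = 0.0760) and Tcf3 (-0.93, adjusted p = 0.0666) with at least 10 counts in every library. Without replicate 3 of KO#1, Dppa2 was called too (0.81, adjusted p = 0.0310, edgeR). The replicates lay apart for 5 of the 8 genes, against 41.8% of all genes. At 24 h, only Zfp281 differed (1.32, SE 0.19, adjusted p = 9.43e-05, edgeR), 1 of 8 genes against 35.4% of all genes (19.3% higher and 16.1% lower, and 57.4% and 2.73% with library sizes alone), and it was called in all 6 fits that left out 1 library, at 1.23 to 1.38. DESeq2, which called 38.7% of all genes, also called Pou5f1 there (-0.56, adjusted p = 0.0305), which stood at 0.47 with library sizes alone in edgeR, and without replicate 1 of KO#2 edgeR called Utf1 (-1.05, adjusted p = 0.0385). With library sizes alone edgeR also called Sox2 (1.40, adjusted p = 0.00395), Sall4 (1.18, adjusted p = 0.0274), Dppa4 (0.82, adjusted p = 0.0245) and Tcf3 (1.14, adjusted p = 0.0202) at 24 h. Replicates lay apart for 3 genes at 24 h, against 47.3% of all genes. Feeder genes, of which 2 of 8 were higher and 0 lower at 0 h and 3 higher and 0 lower at 24 h, summed to between 71.0 and 219 CPM in the KO#2-labelled libraries at 24 h and between 38.7 and 51.8 in KO#1. Of the 6 primitive endoderm genes, 0 were called at 0 h and 3 were higher at 24 h, with sums of 14.2 to 28.2 CPM against 2.99 to 7.79, and the part of either cell type was not tested.
The replicates of Pou5f1 and Zfp281 lay apart in the KO#2-labelled libraries from both other lines at both time points. In edgeR Zfp281 was called in these 4 comparisons and Pou5f1 in 3 of them, all but that with KO#1 at 24 h. The lowest Zfp281 level of a library labelled KO#2 was 69.4 CPM at 0 h, above the highest wt (50.1) and KO#1 (49.8) libraries. At 24 h it was 108 CPM, above 75.9 and 50.9.

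Because the scaling moved some of these values, the level of each gene was also set against Pou5f1 within the same library, per kb of exon, a ratio that no scaling factor changes. This measure was chosen after the other values were seen and is given without a test. The log2 ratio of Sox2 to Pou5f1 was -1.94, -2.00 and -1.11 in wt cells at 0 h and -4.40, -4.44 and -4.29 at 24 h, a mean change of -2.69 with no overlap. It changed by -1.61 in KO#1 and by -1.79 in the KO#2-labelled libraries, also with no overlap. The last value holds the change of Pou5f1 with time in that clone (0.66, not called) in its denominator. Sox2 itself changed by -1.44 in KO#1 and by -1.10 in the KO#2-labelled libraries.
Zfp281 stood at a mean log2 ratio of -3.97 to Pou5f1 in the KO#2-labelled libraries at both time points, against -5.79 and -5.52 in wt cells, and no library labelled KO#2 overlapped wt or KO#1. Utf1 had a mean log2 ratio of -3.51 at 0 h and -1.87 at 24 h in wt cells, and of -3.70 and -2.00 in the KO#2-labelled libraries, where the clones overlapped wt cells at both time points. Its lower CPM in the KO#2-labelled libraries thus went together with a lower Pou5f1. Dppa4 and Dppa2 stood higher relative to Pou5f1 in the KO#2-labelled libraries than in wt cells at 0 h, by 1.64 and 1.57 on the log2 scale, with no overlap. These ratios, and the difference of 1.82 for Zfp281, hold the lower Pou5f1 of that clone (-1.12) in their denominator.

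**Figure D5:**
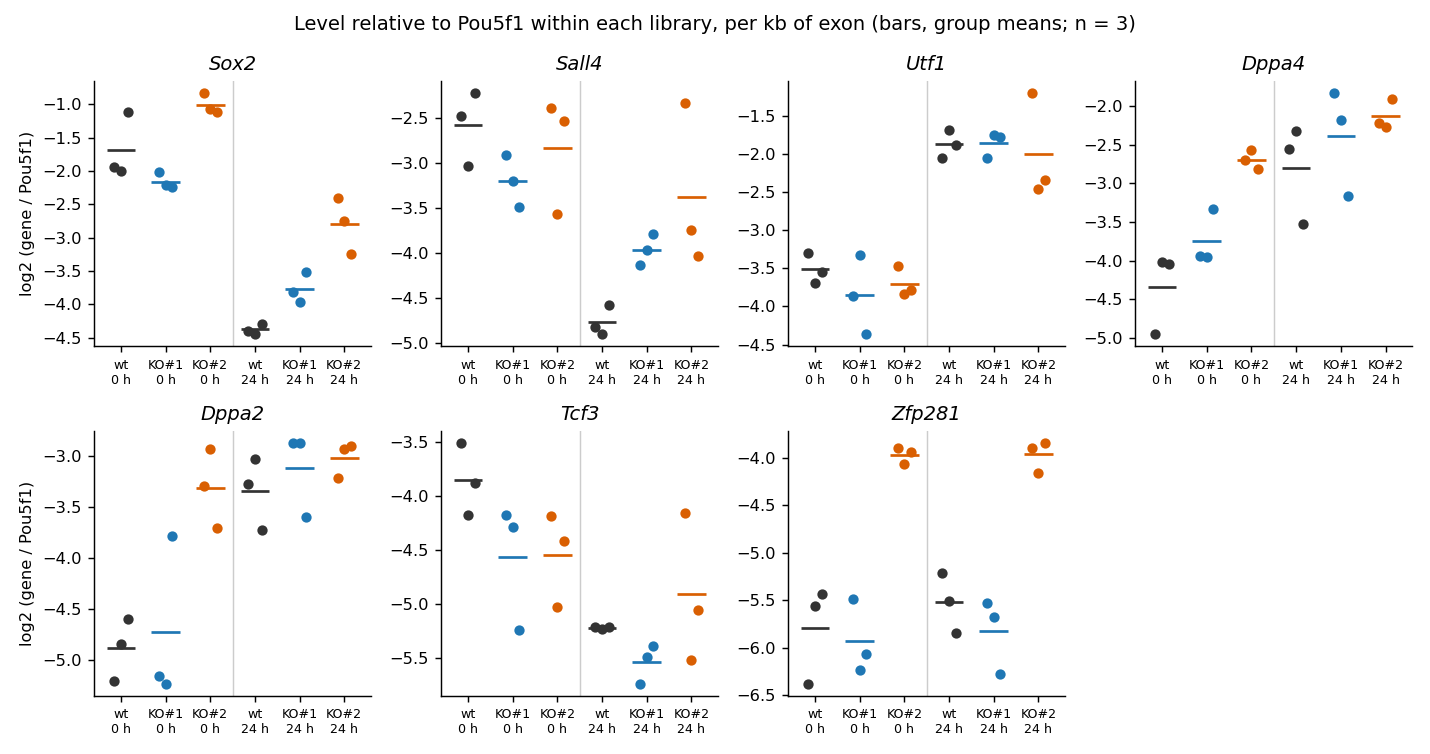
Log2 ratio of each of the other 7 genes to Pou5f1 within each library, per kb of exon, by line and time point, with 1 point per library and a bar at the mean of the 3 replicates. In wt cells Sox2 goes from a mean of -1.68 to -4.38, and Zfp281 lies at -3.97 in the KO#2-labelled libraries at both time points.

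The genes whose log2 CPM was most like that of a member were taken by Pearson's r over the 18 libraries, among 10716 genes with an average log2 CPM of at least 2. The libraries share lines, time points and depth, so r is a description. The closest were Rnf126 for Pou5f1 (r = 0.961), Sec14l1 and Acvr1b for Sox2 (0.981 and 0.979), Nid2 for Sall4 (0.970) and Dhx8 for Utf1 (0.967). For Dppa4 and Dppa2 they were Rsl1d1 (0.972) and Prdx6 (0.966), and for Tcf3 it was Tcof1 (0.968). No member was the closest gene to another member. Among the members themselves, Sall4 and Tcf3 had an r of 0.79, Sox2 and Sall4 of 0.74, Utf1 and Dppa2 of 0.71, Utf1 and Dppa4 of 0.71, and Pou5f1 and Utf1 of 0.69. The most negative pairs were Sox2 with Dppa4 (-0.95), Dppa2 (-0.90) and Utf1 (-0.77), and Sall4 with Dppa4 (-0.74) and Dppa2 (-0.73).

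The proteins that work with OCT4 and SOX2 were followed as a list of 22 genes. From 0 h to 24 h, 2 of them rose and 12 fell in wt cells, 1 rose and 9 fell in KO#1, and 2 rose and 2 fell in the KO#2-labelled libraries, with medians of -0.74, -0.67 and 0.13 on the log2 scale, where 50.7%, 40.8% and 26% of all genes were called and their medians were 0.03, 0.00 and -0.03. Nanog, the homeodomain factor of naive cells, fell from 482 ± 78.3 to 19.5 ± 7.75 CPM in wt cells (-4.63, adjusted p = 4.45e-06, edgeR). Esrrb, an orphan nuclear receptor of the naive state, fell from 939 ± 237 to 65.1 ± 8.28 CPM (-3.85, adjusted p = 6.83e-07, edgeR). Both also fell in KO#1 (-3.29 and -2.95) and in the KO#2-labelled libraries (-2.80 and -2.36), so that Sox2 fell together with naive partners and Pou5f1 did not. Trim28, a corepressor, rose in the KO#2-labelled libraries, from 609 ± 66.5 to 1331 ± 297 CPM (1.13, adjusted p = 0.0147, edgeR).
Against wt cells, the KO#2-labelled libraries had 2 of the 22 genes higher and 10 lower at 0 h and 5 higher and 0 lower at 24 h, where 38.1% and 37.3% of all genes were called. Rif1, a telomere and replication timing protein, was higher at both times (1.61, adjusted p = 0.000285, and 1.36, adjusted p = 0.000602, edgeR), and Tet1, which oxidises methylcytosine, was higher at 24 h (1.65, adjusted p = 0.00327, edgeR). KO#1 had 0 higher and 1 lower at 0 h and 1 higher and 0 lower at 24 h, where 6.67% and 9.86% of all genes were called. Nanog was that 1 gene at 24 h, at 68.8 ± 39.6 CPM against 19.5 ± 7.75 (1.82, adjusted p = 0.0187, edgeR), and it was also higher in the KO#2-labelled libraries, at 63.9 ± 40.9 CPM (1.71, adjusted p = 0.00926, edgeR). The KO#2-labelled libraries overlapped wt cells there, from 24.6 to 106 CPM against 12.0 to 27.5, and those of KO#1 (36.8 to 113) did not.

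Of 12 genes known as targets of OCT4 and SOX2, 2 rose and 3 fell in wt cells with time, 1 rose and 2 fell in KO#1, and 3 rose and 4 fell in the KO#2-labelled libraries, beside the same shares of all genes. Lin28a, an RNA-binding protein that blocks the maturation of let-7, rose in all 3 lines, from 64.8 ± 24.9 to 417 ± 59.1 CPM in wt cells (2.68, adjusted p = 0.000276), 3.77 in KO#1 (adjusted p = 4.22e-05) and 4.37 for the KO#2-labelled libraries (adjusted p = 1.82e-05) in edgeR. Fbxo15, an F-box gene, fell in wt cells (-1.66, adjusted p = 0.0132, edgeR). Against wt cells, 2 targets were higher and 1 lower in KO#1 at 0 h and 3 higher and 1 lower at 24 h, beside 6.67% and 9.86% of all genes called. In the KO#2-labelled libraries, 3 were higher and 4 lower at 0 h and 3 higher and 0 lower at 24 h, beside 38.1% and 37.3%. Zfp42 (REX1), a marker of naive cells, was higher in both clones at both times, from 1.10 to 1.98 on the log2 scale, all against the same wt libraries. In the marker panels, of 10 naive genes 0 rose and 8 fell in each line with time, and of 8 formative genes 7 rose and 0 fell in each line. Against wt cells at 24 h, 5 naive genes were higher and 0 lower in KO#1 and 6 were higher and 0 lower in the KO#2-labelled libraries, with medians of 1.11 and 1.41. Of the formative genes, 0 were higher and 4 lower in KO#1 and 0 higher and 2 lower in the KO#2-labelled libraries, with medians of -1.20 and -0.56, while 9.86% and 37.3% of all genes were called. Sox2 was higher than in wt cells in the KO#2-labelled libraries at that time, and the part of the naive and formative state in it was not tested. Neural ectoderm genes (Pax6, Sox1, Nes and Pou3f2) summed to between 12.5 and 43.2 CPM in the 18 libraries.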

How the data were processed

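RNA sequencing of 18 libraries in 6 groups of 3 was analysed, with groups taken from the sample titles. The table that the authors deposited holds raw counts, whole numbers of reads per gene without normalization. In the study, stranded total RNA libraries were sequenced as paired ends, trimmed, cleared of ribosomal sequences and aligned to GRCm38 with STAR. Quantification used Salmon and StringTie and comparisons used DESeq2, per the methods of the study, and the annotation release is not given in the sources used here. The deposited tables also hold fold changes and p-values of the authors' own comparisons, which were not used. The 8 genes were matched by symbol, and positions came from GENCODE M21, which holds 45143 of the 45706 gene identifiers.

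Counts were filtered with filterByExpr by group (minimum count 10), scaled by TMM and fitted with edgeR 4.0.16 in R 4.3.3 in 1 quasi-likelihood model of 6 groups. Genes with a Benjamini-Hochberg adjusted p under 0.05 over all 16619 genes were called. CPM are counts per 1000000 of the TMM-scaled library total. Each standard error is the absolute log2 fold change over the root of its F statistic. Total counts of 3466436 to 23872837 put 3 counts at 0.116 to 0.984 CPM, which covers counting error only. Figures used matplotlib 3.10.9 in Python 3.11.15. The fit was also run on simulated counts in which a small share of genes changed, up and down alike. That run cannot check the scaling between libraries that differ in composition.

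Alternatives were DESeq2 1.42.0, DESeq2's size factors in edgeR, library sizes alone, no filter, at least 10 counts in every library, protein-coding genes only, the replicate number as a block and leaving out each library in turn, which was also done for Tcf7l1, Sox2ot and Hmga2 after seeing the data. All 8 genes are named in every comparison whether called or not. From each further list the text gives counts and names from the up to 3 called genes with the largest change in a comparison, and the genes most like each member were the up to 3 with the highest Pearson's r. That result for Zfp281 is not reported here. The members, the lists (partners, targets, families, panels and cell type markers) and the tests were chosen with earlier results of these data known.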

Additional observations from a re-analysis of the deposited data

Results flagged for a closer look

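Sox2 and Dppa2 were flagged because the KO#2-labelled libraries lay on opposite sides of wt cells at the 2 time points, with no overlap of replicates at either. Replicates also lay apart for 52.9% of all genes at 0 h and 52.1% at 24 h. Sox2 was at -0.43 against wt cells at 0 h (adjusted p = 0.2, edgeR) and at 0.83 at 24 h (adjusted p = 0.0214, edgeR) on the log2 scale. Dppa2 was at 0.51 at 0 h (adjusted p = 0.198, edgeR) and at -0.41 at 24 h (adjusted p = 0.301, edgeR). Only the difference of Sox2 at 24 h was called. The difference between the time points was tested as an interaction term and did not pass in edgeR's quasi-likelihood test (1.27, adjusted p = 0.0841, for Sox2 and -0.92, adjusted p = 0.208, for Dppa2), while DESeq2 called that of Sox2 (1.32, adjusted p = 0.0117). Library sizes alone moved the median of all genes by 0.45 at 0 h and by 1.04 at 24 h in these comparisons. With them Sox2 at 0 h stood at 0.04 and Dppa2 at 24 h at 0.66, so that the opposite sides were not kept under that shift of all genes.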

How the results depend on the processing

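Of 616 values of single genes under other settings, 548 kept their direction and side of the threshold, 18 lost and 32 gained a call, and 22 changed sign, 2 of them losing and 2 gaining a call. Library sizes alone, which moved the median of all genes by up to 1.07, changed 20 signs. In 24 h against 0 h they were Pou5f1 (-0.26) and Zfp281 (-0.036) in wt cells and Pou5f1 (-0.62) and Zfp281 (-0.62) in KO#1. In KO#1 against wt cells they were Pou5f1 (0.15) and Zfp281 (0.014) at 0 h and Dppa2 (-0.014) at 24 h. In the KO#2-labelled libraries against wt cells they were Sox2 (0.036) at 0 h and Pou5f1 (0.26), Utf1 (0.23), Dppa4 (0.99), Dppa2 (0.66) and Tcf3 (0.64) at 24 h. In the differences of response they were Utf1 (-0.037) for KO#1 and Dppa4 (0.0012) for KO#2. Between the clones they were Dppa4 (0.24) at 0 h and Pou5f1 (0.47), Utf1 (0.40), Dppa4 (0.82) and Dppa2 (0.67) at 24 h. At least 10 counts in every library turned Dppa4 to 0.027 in KO#2 against wt cells at 24 h and to 0.12 between the clones at 0 h.
The number of the 8 genes called moved by over 1.5 times in 5 comparisons. For 24 h against 0 h in KO#2 it was 3 with library sizes alone (17.5% of all genes). For KO#1 against wt cells at 24 h it was 1 in DESeq2 (12.8%). For the response of KO#2 it was 3 in DESeq2 (8.48%), 2 with library sizes alone (4.82%), 2 with no filter (5.9%), 2 with protein-coding genes only (3.35%) and 1 with the replicate block (2.69%). Between the clones at 0 h it was 1 with library sizes alone (20.9%) and 2 with at least 10 counts in every library (29.9%), and at 24 h it was 2 in DESeq2 (38.7%) and 5 with library sizes alone (60.1%). The cause was not tested. Replicate numbers were not shown to pair libraries, since deviations of same-numbered libraries had a mean r of 0.05 (-0.26 to 0.59, 45 pairs) against -0.03 for others. The block added the calls of Pou5f1 in KO#2 with time (0.66, adjusted p = 0.0490, edgeR) and of Sall4 in the response of KO#2, and changed no other call.
With 1 library left out, 557 of 624 values kept direction and call. The number called ranged from 3 to 5 for KO#2 with time, from 1 to 3 for KO#2 against wt cells at 24 h, from 0 to 2 for the response of KO#2, and from 2 to 5 and 1 to 2 between the clones at 0 h and 24 h. Signs changed for these uncalled values. With time they were Pou5f1 in KO#1 (-0.076 to 0.20), and Sall4 (-0.39 to 0.47) and Tcf3 (-0.026 to 0.57) in KO#2. In KO#1 against wt cells they were Pou5f1 (-0.17 to 0.20), Utf1 (-0.71 to 0.061) and Dppa2 (-0.30 to 0.60) at 0 h, and Utf1 (-0.39 to 0.015) and Dppa2 (-0.00077 to 0.14) at 24 h. In KO#2 against wt cells at 24 h it was Dppa4 (-0.29 to 0.086). In the response of KO#1 they were Utf1 (-0.21 to 0.56), Dppa2 (-0.58 to 0.32) and Tcf3 (-0.21 to 0.47), and in that of KO#2 it was Zfp281 (-0.0065 to 0.21). Between the clones they were Dppa4 (-0.23 to 0.15) and Dppa2 (-0.088 to 0.81) at 0 h, and Sall4 (-0.44 to 0.42) and Tcf3 (-0.25 to 0.36) at 24 h. In fits added after seeing the data, that of Hmga2 in KO#2 against wt cells at 24 h changed sign too (-0.82 to 0.27).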

Other observations

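The relatives of the 8 factors, 19 genes of the POU, SOX, SALL, E protein, ID, TCF and ZFP281 families, were tested with time by edgeR's quasi-likelihood test. In wt cells 5 rose and 8 fell, in KO#1 6 rose and 10 fell, and in the KO#2-labelled libraries 4 rose and 1 fell, where 50.7%, 40.8% and 26% of all genes were called. Pou3f1 (OCT6), a POU factor of the formative epiblast, rose from 5.35 ± 1.78 to 145 ± 34.3 CPM in wt cells (SD, n = 3), while its relative Pou5f1 did not pass the test. Sox3, a close relative of Sox2, rose from 0.706 ± 0.241 to 10.5 ± 2.46 CPM in wt cells as Sox2 fell. Lef1, a TCF family member, rose from 8.31 ± 5.35 to 85.5 ± 21.03 CPM in wt cells as Tcf7l1 fell. The rises of Pou3f1 and Sox3 were also called in KO#1 (4.08 and 4.04 on the log2 scale) and in the KO#2-labelled libraries (5.32 and 2.99), and that of Lef1 in the KO#2-labelled libraries (4.92).

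At 24 h Pou3f1 and Sox3 were lower than in wt cells in KO#1 (-2.25, adjusted p = 0.000356, and -2.54, adjusted p = 0.000303, edgeR) and in the KO#2-labelled libraries (-2.26, adjusted p = 0.000129, and -1.82, adjusted p = 0.00114, edgeR). Both clones were compared with the same wt libraries. Lef1 was lower in KO#1, at 16.4 ± 10.4 CPM (-2.38, adjusted p = 0.0144, edgeR), and stood at 62.9 ± 47.6 CPM in the KO#2-labelled libraries. Zfp148, the closest relative of Zfp281 in the list, was higher in the KO#2-labelled libraries than in KO#1 at 0 h, with 82.5 ± 9.09 against 27.1 ± 1.65 CPM (1.60, adjusted p = 0.000168, edgeR), as Zfp281 was. Pou2f1 (OCT1) was higher there at 24 h, with 128 ± 41.3 against 27.5 ± 0.351 CPM (2.22, adjusted p = 4.18e-05, edgeR). Sox2ot was higher in the KO#2-labelled libraries than in wt cells at 24 h too (2.14, adjusted p = 0.0117, edgeR), with 2.53 ± 1.91 against 0.593 ± 0.363 CPM and with overlapping replicates. In edgeR that call was lost without replicate 1 of KO#2 (1.38, adjusted p = 0.0922), which brought the mean of the clone to 1.46 CPM, or without replicate 3 of wt (1.83, adjusted p = 0.0564).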
